A study of Saccharomyces cerevisiae with 19 samples.

Results

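Pcf11 CLIP peaks between genes are the places where RNA cross-linked to the yeast protein Pcf11 mapped outside the genes of the annotation the authors used. They were taken from the peak lists of 2 immunoprecipitation (IP) libraries as the rows with no gene assigned and no antisense annotation. This gave 97 of 1332 peaks (7.28%, Wilson 95% interval 6.01 to 8.8) in IP 1 and 131 of 1707 (7.67%, 6.5 to 9.03) in IP 2. Peaks of the 2 libraries that overlap on the same strand were joined, which left 206 distinct regions. None of these peaks overlapped a named gene of the deposited count tables, on either strand. Of the genes in RefSeq's R64 annotation, 1 region of IP 2 overlapped SUT126.

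Pcf11 is a subunit of cleavage factor IA, which cuts nascent mRNA at its 3′ end together with the cleavage and polyadenylation factor. It also binds the C-terminal tail of RNA polymerase II and takes part in terminating transcription, both at mRNA genes and at short noncoding transcripts that the Nrd1-Nab3-Sen1 complex ends. Yeast 3′ ends carry a UA-rich efficiency element, an A-rich positioning element and U-rich stretches around the cut site. Gaps between yeast genes are short and hold promoters, terminators, replication origins, tRNA-linked retrotransposon repeats and unstable noncoding transcripts.

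The CLIP libraries came from yeast described as overexpressing Flag-pcf11, immunoprecipitated with a Flag antibody, with an input library for each IP. The inputs carry WT as their genotype label although their description names the overexpression. RNA sequencing covered 5 strains with 3 libraries each: ΔPcf11, labelled as a deletion, Pcf11-AARR, which has 4 residues changed (Y575A, E577R, E578R and W582A), Pcf11-OE1 and Pcf11-OE2, which overexpress the gene, and WT. The overexpression constructs used a TEF1 promoter with a GRS1 terminator or a CDC60 promoter with a DITI terminator, and the labels do not say which is Pcf11-OE1. All libraries are labelled 36 h, and both S288C and CEN.PK2-1C are named for every library, so the background of a single strain cannot be read from them.

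The IP libraries held 317545 and 512533 reads after duplicate removal, so 1 tag (a read counted in a peak) was worth 3.15 and 1.95 RPM, the tags scaled to library size. The RNA libraries held 26211192 to 46296634 counted reads. PCF11 itself was at 11.7, 12.7 and 12 CPM (counts scaled to library size) in the libraries labelled ΔPcf11, against 17.3, 13.7 and 13.8 CPM in WT. These groups do not overlap, but the transcript was present at most of its WT level, and the difference (log2 fold change −0.30, edgeR adjusted p = 0.0417) lost its call under 10 of 11 alternatives. The deletion label is therefore used here as a name only. PCF11 averaged 573 ± 28.8 CPM in Pcf11-OE1 and 73.9 ± 11.2 CPM in Pcf11-OE2, against 14.9 ± 2.09 CPM in WT (SD, n = 3 each). The overexpression strains and the other 2 were counted in separate tables with the same WT libraries, so a WT value can differ slightly between them by scaling.

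The peaks that carry the description are those found in both IP libraries and the highest of each library. Shown first are 101 bases centred on the summit of 7 of the shared peaks, read 5′ to 3′ on the peak's own strand, with coordinates and bases from RefSeq's R64 genome. Capitals mark the DNA forms of the 3′ end elements named above, which are TATATA for the efficiency element, AATAAA and also AAAAAA for the positioning element, and TTTTTT for the U-rich stretches.

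CWP2-CWP1, chrXI:259802-259902, - strand: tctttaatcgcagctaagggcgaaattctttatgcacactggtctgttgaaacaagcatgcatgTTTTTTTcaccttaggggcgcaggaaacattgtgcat
tQ(UUG)L-ETS2-1, chrXII:449310-449410, - strand: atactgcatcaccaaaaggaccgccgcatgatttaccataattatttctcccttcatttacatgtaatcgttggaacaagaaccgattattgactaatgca
IRC15-SWI1, chrXVI:520723-520823, + strand: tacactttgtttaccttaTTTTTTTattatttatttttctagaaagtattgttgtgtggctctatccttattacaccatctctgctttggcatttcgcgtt
YOR343C-YOR343C-A, chrXV:969078-969178, + strand: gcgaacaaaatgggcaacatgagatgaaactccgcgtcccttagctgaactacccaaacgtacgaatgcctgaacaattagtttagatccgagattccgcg
GCG1-CHD1, chrV:504212-504312, + strand: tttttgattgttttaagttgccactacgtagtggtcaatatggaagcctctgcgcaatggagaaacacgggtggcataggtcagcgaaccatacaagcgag
PHO81-YHB1, chrVII:958854-958954, - strand: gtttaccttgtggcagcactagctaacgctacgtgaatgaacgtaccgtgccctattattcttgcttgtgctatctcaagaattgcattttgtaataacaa
PCF11-IVY1, chrIV:924329-924429, - strand: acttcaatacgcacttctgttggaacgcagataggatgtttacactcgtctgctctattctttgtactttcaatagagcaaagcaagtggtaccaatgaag

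Capitals occur in only 2 of these 7 windows, as a run of T in the CWP2-CWP1 window and in the IRC15-SWI1 window. The next 4 windows are the highest mitochondrial peak and 3 nuclear peaks, each called in 1 library only.

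15S_RRNA-AI1, chrM:13436-13536, + strand: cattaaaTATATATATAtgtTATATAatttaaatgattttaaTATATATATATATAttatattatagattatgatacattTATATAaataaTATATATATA
YGR050C-FMP48, chrVII:593200-593300, + strand: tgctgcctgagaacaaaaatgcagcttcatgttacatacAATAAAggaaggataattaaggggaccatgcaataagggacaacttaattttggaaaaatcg
SRY1-JEN1, chrXI:21461-21561, + strand: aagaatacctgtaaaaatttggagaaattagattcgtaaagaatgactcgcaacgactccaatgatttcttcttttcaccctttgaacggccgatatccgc
TCM62-tV(UAC)B, chrII:326356-326456, + strand: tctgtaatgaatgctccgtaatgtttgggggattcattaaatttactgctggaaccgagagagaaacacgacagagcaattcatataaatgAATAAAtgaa

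The mitochondrial window is almost pure A and T, with a GC content of 5.94%, and is filled with TATATA. The YGR050C-FMP48 and TCM62-tV(UAC)B windows hold AATAAA, and the SRY1-JEN1 window has none of the 4 motifs. Of the 17 nuclear windows among the 20 highest and shared peaks chosen by rule, 6 held any of the 4 motifs: 3 held AATAAA, 2 AAAAAA, 2 TTTTTT and 0 TATATA. Of all gene-free nuclear windows of 101 bases, 11.3% held AATAAA, 17% AAAAAA, 17% TTTTTT and 10.5% TATATA. Counts this small do not separate the peaks from that background.

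Peaks between genes were low. Their median height, the highest read depth in the peak, was 5 in IP 1 (range 3 to 48) and 5 in IP 2 (3 to 73), beside 14 and 18 for peaks in the sense of genes. Peaks antisense to genes had medians of 5 and 6, close to those between genes. The median peak between genes held 6 tags in each library, and 48 of 97 peaks (49.5%) in IP 1 and 55 of 131 (42%) in IP 2 held at most 5 tags. Only 10 peaks (10.3%) in IP 1 and 8 (6.11%) in IP 2 reached the median height of all peaks of their library, which was 11 and 13. All peaks between genes together held 800 tags, or 1.04% of the tags in peaks, in IP 1 and 1153 tags, or 0.935%, in IP 2. The 5 peaks with the most tags held 24.9% and 21.9% of these.

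**Figure D1:**
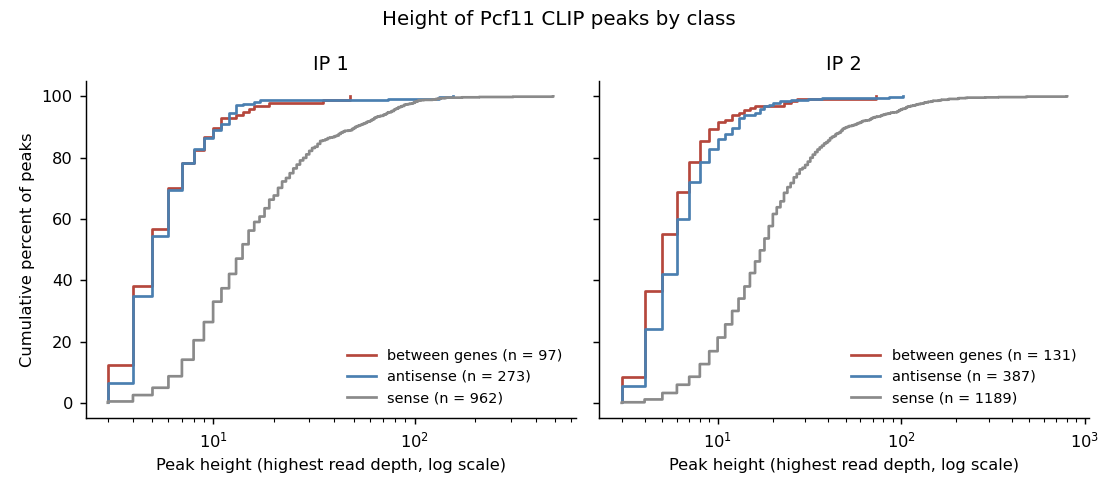
Cumulative percent of peaks (vertical axis) by peak height, the highest read depth in a peak (horizontal axis, log scale), for the 2 IP libraries. The curves of peaks between genes (red) and antisense to genes (blue) lie together at medians of 5 to 6, and the curve of sense peaks (grey) lies to the right at medians of 14 and 18.

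The peaks were also narrow. The median width was 248 bases (19 to 770) in IP 1 and 277 bases (19 to 1992) in IP 2, beside 572.5 and 700 bases for sense peaks. Peaks antisense to genes had median widths of 274 and 272 bases, close to those between genes. The plus strand held 44 peaks and the minus strand 53 in IP 1, and 49 and 82 in IP 2. Another peak on the same strand lay within 500 bases of 9 peaks (9.28%) in IP 1 and 14 (10.7%) in IP 2. Median gaps were 7082 and 5591 bases, so most stood alone, as did most peaks of the other classes. Such a neighbour lay beside 7.69% and 8.53% of the antisense peaks and 9.98% and 15.5% of the sense peaks. A peak on the opposite strand overlapped 0 of 97 in IP 1 and 11 of 131 (8.4%) in IP 2. It did so for 22.3% and 20.7% of the antisense peaks and for 8.32% and 10.3% of the sense peaks.

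Few regions were called in both libraries. Using a single shared base on the same strand, 22 regions were common, which is 22.7% of the peaks between genes in IP 1 (15.5 to 32) and 16.8% of those in IP 2 (11.4 to 24.1). The share was 30.5% and 24.5% for sense peaks and 19.8% and 13.4% for antisense peaks. It went with the tag count: of peaks with 3 to 5 tags, 10.4% in IP 1 and 9.09% in IP 2 were shared, and of peaks with 10 or more tags, 39.1% and 37.9%. A further 6 peaks of IP 1 and 2 of IP 2 overlapped a peak that the other library assigned to a gene. Of the 206 distinct regions, 75 were seen in IP 1 only and 109 in IP 2 only. At a median of 6 tags, a region missing from the other library may lie below its detection, and absence was not tested.

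Among the 22 shared regions, the RPM was lower in IP 2 than in IP 1 in 18. The ratio of IP 2 to IP 1 had a median of 0.714 (0.275 to 1.24), where IP 2 is 1.61 times as deep. The exact Poisson intervals of the 2 libraries overlapped in each region taken singly, but they are wide at these tag counts and cover counting error only. Pearson's r of the log2 values was 0.85 over the 22 regions and 0.73 over 21 without the highest; it describes these regions, which all share the same 2 libraries and were kept for being called in both. Shared peaks had median heights of 6 and 7 and median widths of 348.5 and 335 bases, and unshared peaks had heights of 5 and 5 and widths of 240 and 273 bases.

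**Figure D2:**
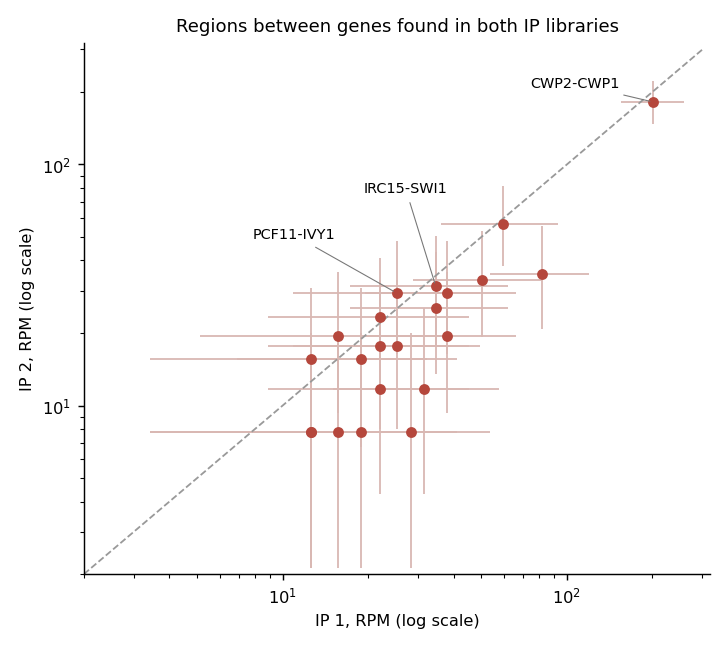
RPM in IP 2 (vertical, log scale) against IP 1 (horizontal, log scale) for the 22 regions between genes called in both libraries, with 95% Poisson intervals and the line of equality (dashed). The CWP2-CWP1 region stands at 201.5 and 181.5 RPM, apart from the rest, which lie at or below 81.9 and 56.6.

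The highest region in both libraries lay between CWP2 and CWP1 on chromosome XI, neighbouring genes of major cell wall mannoproteins on the plus strand. The peak was on the minus strand, with its nearest edge 42 bases beyond the annotated 3′ end of CWP2. It held 64 tags (201.5 RPM, interval 155.2 to 257.4) in IP 1 and 93 tags (181.5, 146.5 to 222.3) in IP 2, at heights of 48 and 73. The next by tags were a pair of regions in the interval between the glutamine tRNA gene tQ(UUG)L and ETS2-1, the annotated external spacer at the edge of the ribosomal RNA genes on chromosome XII. The minus-strand region there held 19 and 29 tags. The plus-strand region, whose 3′ end overlaps the replication origin ARS1216 by 31 bases, held 26 and 18 tags.

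Regions between divergent genes were the main kind among the shared ones. The IRC15-SWI1 region (11 and 16 tags) had its midpoint 223 bases before the start of SWI1, which encodes a subunit of the SWI/SNF chromatin remodelling complex, on the same strand. The GCG1-CHD1 region (12 and 15 tags) lay between a glutathione-degrading enzyme and the chromatin remodeller CHD1, its midpoint 1066 bases before the start of CHD1. The PHO81-YHB1 region (11 and 13 tags) had its midpoint 837 bases before PHO81, the cyclin-dependent kinase inhibitor of the phosphate response, with the flavohemoglobin gene YHB1 on the other side. The PCF11-IVY1 region (8 and 15 tags, 25.2 and 29.3 RPM) lay on the strand of PCF11 with its midpoint 536 bases before the PCF11 start. Reads from a Flag-pcf11 construct are not told apart from reads of the native locus in a peak list. LYS14, an activator of lysine synthesis genes, bordered a region of 7 and 9 tags on the opposite strand.

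Repeats, origins and organelle DNA held some of the regions. A shared region on chromosome XV (16 and 17 tags) spanned Ty1 and Ty3 long terminal repeats, and 18 of 206 regions (8.74%, 5.6 to 13.4) overlapped a Ty element or repeat, as did 11% of gene-free windows of the same widths. Reads from such copies cannot be assigned to a single locus with confidence. Replication origins were touched by 8 regions (3.88%, 1.98 to 7.47) and by 5.44% of such windows, and telomeric elements by 5 regions (2.43%, 1.04 to 5.56) and 3.25% of windows. All 3 window shares lie within the regions' intervals. The mitochondrial genome held 8 regions, and the shared one (12 and 10 tags) lay across the mitochondrial origin ORI2. By chromosome, the count ran between 2.62 regions per 100 kb of gene-free DNA on chromosome I, which held 2 regions, and 15.1 on chromosome VI, which held 9.

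The highest peaks of a single library lay in other gaps. In IP 1 the SRY1-JEN1 peak had 52 tags (163.8 RPM) upstream of JEN1, the lactate and pyruvate permease, on its strand. Its midpoint lay 583 bases and its nearest edge 197 bases before the JEN1 start. A mitochondrial peak before the intron reading frame AI1 had 35 tags, all at 1 summit of height 35. The ROX3-RPL32 peak had 13 tags and its midpoint lay 365 bases before RPL32, a gene of the large ribosomal subunit. Of the peaks found in IP 2 only, the highest lay between YCR062W and SUP61, with 27 tags at a height of 27. Its window of 101 bases held AAAAAA. The YFL051C-ALR2 peak of IP 2 was the widest of all at 1992 bases, with 68 tags at a height of 16. The TCM62-tV(UAC)B peak of IP 2, over the origin ARS211, had 36 tags at a height of 25.

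Position relative to gene ends was read against the annotation of the count tables. In it, 4467 of 5094 coding genes (87.7%) run past the reference coding end at the 3′ side, by a median of 448 bases, while 3 run past it at the 5′ side. The bases just past most stop codons therefore count as genic there, and the regions described here lie beyond them. What remained gene-free was 2024846 of 12157105 bases, or 16.7%, when both strands are required to be free.

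By midpoint, 18 of the 206 regions (8.74%, 5.6 to 13.4) lay within 500 bases past the 3′ end of a gene or element on their strand. A further 72 (35%, 28.8 to 41.7) lay within 500 bases before a start on their strand, 49 (23.8%) were that close to opposite-strand features only, and 67 (32.5%) were farther from every end. Windows of the same widths placed at every gene-free position gave 10.7%, 32.6%, 24.4% and 32.4%. The regions thus stood at about the shares that their widths and the gaps give. Set against single gene-free bases, the share past a 3′ end was 13.9% and before a start 40.4%, which differ from the window values in nothing but the width. In IP 1 by itself 7 of 97 peaks lay past a 3′ end and 39 before a start, and in IP 2 11 of 131 and 42.

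No shared region lay past a 3′ end (0 of 22, Wilson upper bound 14.9%), beside 18 of 184 regions seen in 1 library (9.78%, 6.28 to 14.9). These intervals overlap, and the difference itself was not tested. Before a start were 9 of the 22 shared regions (40.9%, 23.3 to 61.3) and 63 of the 184 others (34.2%). Divergent gene pairs flanked 16 of the 22 shared regions (72.7%, 51.8 to 86.8), 98 of the 184 seen in 1 library (53.3%, 46.1 to 60.3) and 49.9% of the windows of the shared widths. The interval of the shared regions lies just above the window share, by counting error alone. Convergent pairs, where 2 genes end toward each other, flanked 0 of 22 and 10 of 184 (5.43%), with 6.49% of windows of the shared widths.

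**Figure D3:**
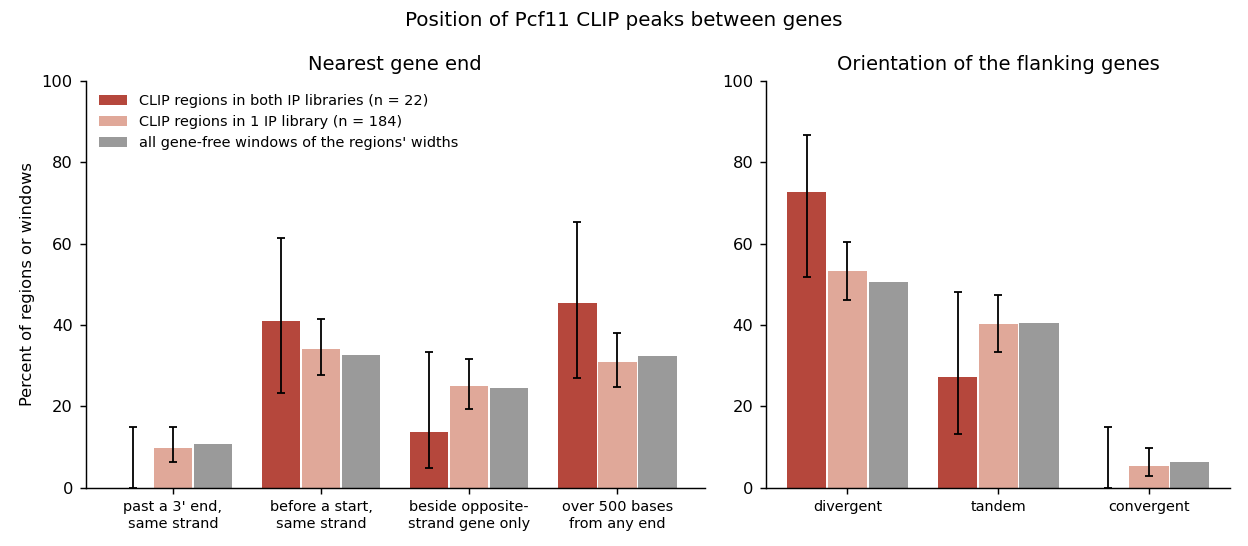
Percent of regions (vertical axis) in each class of position (left) and of flanking gene orientation (right), for the 22 regions in both IP libraries, the 184 in 1 library and all gene-free windows of the regions' widths, with Wilson 95% intervals on the regions. Regions seen in 1 library stand at the level of the windows in every class, and the shared regions are 72.7% divergent with 0 past a 3′ end.

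The letters of the regions were compared with gene-free windows of the same lengths over the 198 nuclear regions, on the peak strand. TATATA, the efficiency element, was in 25.8% of regions (20.2 to 32.3) and in 24.3% of windows. AATAAA was in 22.2% (17 to 28.5) against 28.2%, and AAAAAA in 36.4% against 37.7%. TTTTTT was in 29.8% (23.9 to 36.5) of regions against 37.7% of windows, which lies just above the interval. With 50 bases added on each side it was in 41.4% (34.8 to 48.4) against 46.1%, inside the interval. So widened, TTTTTT was in 47.3% of IP 1 peaks against 44.5% of windows, and in 36.7% (28.9 to 45.3) of IP 2 peaks against 47.2%. The window share lies inside the interval in IP 1 and above it in IP 2. For Nrd1, GTAA was in 68.2% of regions against 74% of windows and GTAG in 53% against 53.6%, and for Nab3, TCTT was in 80.8% against 79.7%. The intervals of the 2 libraries did not meet for GTAG, which was in 38.5% (29.1 to 48.7) of IP 1 peaks against 51% of windows and in 61.7% (53.1 to 69.7) of IP 2 peaks against 55.3%. The 7 motifs are given with no adjustment for their number. They were counted with overlaps and on the strand of the peak only. The regions had a GC content of 38.2%, and all gene-free nuclear bases 35.8%, so homopolymer runs and base composition move together here and their parts were not tested apart. A match is a stretch of letters and not a site.

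The genes next to these regions were then read in the RNA libraries. Each strain was compared with the same 3 WT libraries, so the 4 comparisons are not independent and are given side by side. The labels do not give the background of a single strain, so its part in these changes was not tested. In bulk RNA, fewer expressing cells and less RNA per cell cannot be told apart. The backgrounds were high. In the libraries labelled ΔPcf11, 32% of 6463 features tested were called higher and 33% lower at an edgeR adjusted p under 0.05. In Pcf11-AARR the shares were 32% and 32.7%. In Pcf11-OE1 35.2% of 6452 features were higher and 33% lower, and in Pcf11-OE2 33% and 31.9%.

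A set of 82 genes started within 500 bases after a region on the same strand. Of 79 tested, 23 were called higher and 22 lower in the ΔPcf11-labelled libraries, and 28 and 19 in Pcf11-AARR. Of 76 tested, 24 were higher and 29 lower in Pcf11-OE1, and 26 and 28 in Pcf11-OE2. Median log2 fold changes were −0.12, 0.09, −0.09 and −0.03 in that order, beside 0.00, 0.01, 0.03 and 0.01 over all features. These shares, 24.1% to 38.2%, are near the background.

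The 23 genes that ended within 500 bases before a region were fewer and included 5 tRNA genes with too few reads to test. Of the other 18, all tested, 9 were higher and 1 lower in the ΔPcf11-labelled libraries, 11 and 4 in Pcf11-AARR, 10 and 3 in Pcf11-OE1, and 12 and 3 in Pcf11-OE2. Their medians were 0.34, 0.67, 0.51 and 0.66. The higher share, 50% to 66.7%, was above the background of 32% to 35.2%, and the lower share, 5.56% to 22.2%, was below that of 31.9% to 33%, in only 18 genes. In WT these 23 genes were low, with medians of 14.4, 12.6 and 12.9 CPM per kb in the 3 libraries, beside 27.5, 28.1 and 27.6 over all genes. The 82 genes that start after a region had medians of 21.1, 21.1 and 21 CPM per kb. In the CLIP inputs the 23 genes had median FPKM of 8.92 and 16.6, beside 52 and 51.1 over all genes. The medians of the 23 genes include the 5 tRNA genes, while 273 of all 6408 genes were tRNA genes. Medians without tRNA genes were not taken.

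MAL32, the maltase gene, ended 217 bases before the midpoint of a region of IP 2. It was at 486, 365 and 441 CPM in the ΔPcf11-labelled libraries, 131, 221 and 210 in Pcf11-AARR, 394, 309 and 346 in Pcf11-OE1 and 323, 461 and 626 in Pcf11-OE2, against 3.34, 2.41 and 2.43 CPM in WT (3.34, 2.39 and 2.42 in the table of the overexpression strains). Every engineered library stood far above WT, with log2 fold changes of 7.31, 6.11, 7.01 and 7.44 in that order (standard errors 0.26, 0.25, 0.29 and 0.29). MAL11, a maltose transporter gene, started 209 bases after the midpoint of a region of IP 1 and showed 5.25, 4.77, 5.55 and 5.87. Its mean was 1434 ± 116 CPM in the ΔPcf11-labelled libraries, 1027 ± 281 in Pcf11-AARR and 37.8 ± 4.06 in WT (SD, n = 3 each). NCA3, which helps the expression of mitochondrial ATP synthase subunits, started 281 bases after the midpoint of a region of IP 1 and was lower in all 4 strains. It held 80.9, 79 and 78.7 CPM in the libraries labelled ΔPcf11, against 1068, 855 and 974 CPM in WT, and its log2 fold changes were −3.60, −3.81, −3.95 and −3.65. Neither group overlapped the other for any of these 3 genes.

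Further genes that start after a region are named for their place among the most changed in some strains, with changes on the log2 scale. WSC2, a sensor of cell wall stress, rose by 2.83 in Pcf11-OE1 and 2.54 in Pcf11-OE2, and STP4, a zinc finger protein gene, by 2.21 and 2.16. FIT1, a cell wall mannoprotein that holds siderophore iron, held 18.4, 11.8 and 27.7 CPM in the ΔPcf11-labelled libraries and 20.4, 15.6 and 20.3 in Pcf11-AARR, where it rose by 1.95, against 5.38, 5.09 and 4.08 CPM in WT. FAA3, a fatty acid activating enzyme, fell, with log2 fold changes of −1.91, −2.02 and −2.25 in the libraries labelled ΔPcf11, Pcf11-OE1 and Pcf11-OE2. URA2, the first enzyme of pyrimidine synthesis, fell, with −1.73 and −1.90, in the ΔPcf11-labelled libraries and Pcf11-AARR. RPL24A, which starts after a region found in both IP libraries, fell, with −1.87 in Pcf11-OE1 and −1.82 in Pcf11-OE2. LEU4, an enzyme of leucine synthesis beside another shared region, fell by 1.52 in the libraries labelled ΔPcf11. The edgeR adjusted p was at most 8.92e-05 for each change named for MAL32, MAL11, NCA3 and these 7 genes, and each kept its direction and its call under the 11 alternatives run for it.

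**Figure D4:**
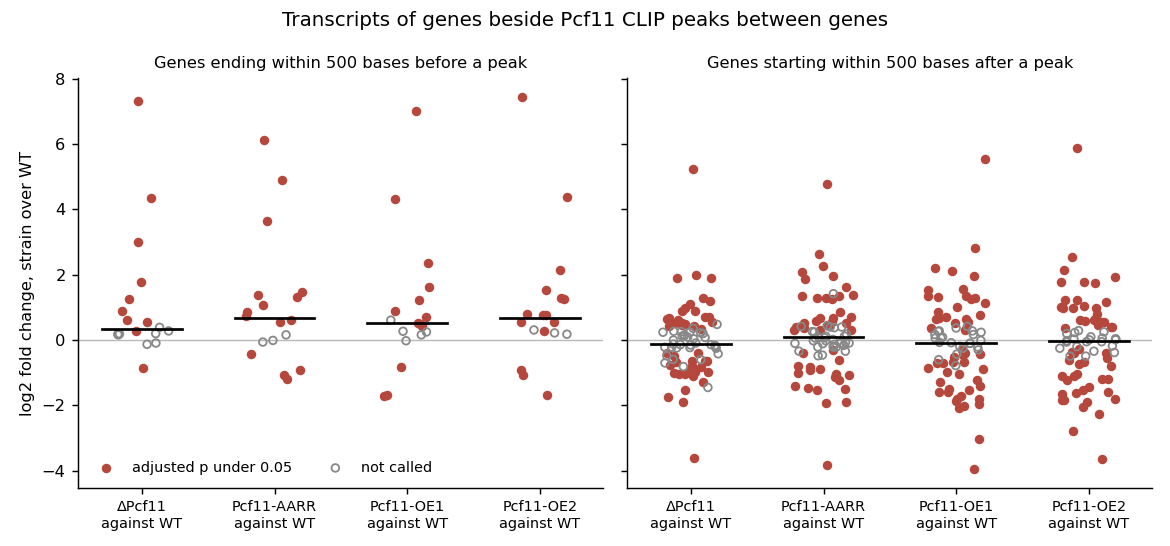
Log2 fold change of each strain over WT (vertical axis) for genes ending within 500 bases before a region (left) and starting within 500 bases after one (right), with 1 point a gene, filled where the edgeR adjusted p was under 0.05 and black lines at the medians. On the left the medians lie between 0.34 and 0.67, and on the right between −0.12 and 0.09.

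Genes flanking the shared regions differed from each other. CWP2 was lower in all 4 strains, at 73.4, 83.9 and 60.3 CPM in the ΔPcf11-labelled libraries and 42.7, 36.6 and 39.6 in Pcf11-AARR, against 200, 174 and 220 in WT. No library overlapped WT, and the log2 fold changes were −1.45, −2.32, −1.32 and −1.54 (edgeR adjusted p = 5.00e-06, 2.24e-07, 1.91e-05 and 8.28e-06). CWP1 on the other side of that region was lower in 3 strains, with log2 fold changes of −1.24 in the ΔPcf11-labelled libraries, −0.67 in Pcf11-AARR and −0.40 in Pcf11-OE2 (edgeR adjusted p = 2.67e-06, 1.69e-04 and 0.0047). In Pcf11-OE1 it was at −0.09 with no call. YHB1 was higher in all 4, by log2 fold changes of 2.16, 1.24, 2.01 and 2.41, with 144, 301 and 173 CPM in the libraries labelled ΔPcf11 and 53.2, 39.1 and 46.3 in WT. LYS14 was lower, with −0.94, −1.08, −0.77 and −0.86 in the 4 strains. JEN1, beside the IP 1 region described above, fell, with −2.09, −1.95, −2.30 and −2.17, to 1370, 1030 and 1176 CPM in the libraries labelled ΔPcf11, against 4618, 5202 and 5408 in WT.

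Others responded in some strains only by their own tests. SWI1 had 34.7, 31.4 and 40 CPM in the libraries labelled ΔPcf11 and 22.1, 17.3 and 18 CPM in WT (log2 fold change 0.89, edgeR adjusted p = 8.98e-05), and log2 fold changes of 0.06, 0.06 and 0.03 in Pcf11-AARR, Pcf11-OE1 and Pcf11-OE2, where no call was made. IRC15 on the other side of that region was at −0.89 in the libraries labelled ΔPcf11 and −0.21, 0.18 and 0.22 in the others. GCG1 was at −0.00 in the ΔPcf11-labelled libraries and rose by 0.59, 1.00 and 1.00 in Pcf11-AARR, Pcf11-OE1 and Pcf11-OE2, and CHD1 rose by 0.58 and 0.54 in Pcf11-OE1 and Pcf11-OE2. The differences between strains were not tested.

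Of the gene lists looked at, 3 of 138 cytosolic ribosomal protein genes (RPL24A, RPL32 and RPS7A) started after a region and 0 ended before one. All 3 were higher in the ΔPcf11-labelled libraries and 1 in Pcf11-AARR, while 2 (RPL24A and RPS7A) were lower in Pcf11-OE1 and in Pcf11-OE2. The call of RPL32 in Pcf11-AARR (log2 fold change 0.41, edgeR adjusted p = 0.0159) was lost without Pcf11-AARR replicate 2. Over all features, 32% were higher in each of the first 2 strains, and 33% and 31.9% lower in Pcf11-OE1 and Pcf11-OE2, so 3 genes say little beside that. Of 273 tRNA genes 4 started after a region and 5 ended before one. None of the 82 snoRNA and snRNA genes, 24 rRNA features, 21 glycolysis genes, 21 cleavage and polyadenylation genes, 7 termination factor genes or 17 hexose transporter genes did either. With 82 and 23 of all 6408 genes in these places, 0 is no finding for lists of this size. PCF11 itself is not among them because the midpoint of its region lay 536 bases before its start, past the 500 bases used.

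The annotated elements that lie under a region are counted in the RNA tables as whole elements, so these values are not those of the peak bases alone. CPM is not scaled to the length of an element, and the elements differ widely in length, so it does not rank them by RNA per base. Of 13 such elements, TEL12R, the right end of chromosome XII, had the highest CPM in the engineered strains, with 2 regions on opposite strands in IP 2. In WT the highest CPM was that of TEL05R, at 215, 180 and 194. TEL12R held 574, 455 and 500 CPM in the libraries labelled ΔPcf11, against 183, 152 and 156 in WT. It rose by 1.64, 1.77, 1.95 and 1.96 in the 4 strains. YPRWTy1-3, a Ty1 retrotransposon that a shared region overlaps by 135 bases, held 121, 208 and 169 CPM in the ΔPcf11-labelled libraries and 155, 148 and 73.7 in Pcf11-AARR, against 28.9, 29 and 30.4 in WT. It rose by 2.50 and 2.09 there and by 0.59 and 0.81 in Pcf11-OE1 and Pcf11-OE2. Reads of Ty1 copies may be shared among copies. Whether the reads counted for a telomeric element come from that chromosome end alone was not tested.

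TEL11L went the other way, with 0.0257, 0.119 and 0 CPM in the libraries labelled ΔPcf11, against 2.25, 1.85 and 2.48 in WT, and log2 fold changes of −5.52, −5.24, −3.32 and −2.25. ARS318 had 0 reads in each of the 12 engineered libraries, against 190 reads over the 3 WT libraries. Its region overlaps it by 4 bases only. ARS211 had 2.47, 4.52 and 3.22 CPM in Pcf11-OE1 and 3.32, 3.38 and 3.56 in Pcf11-OE2, against 1.65, 1.65 and 1.57 in WT, and rose by 1.07 in each. TEL05R rose by 0.94 in Pcf11-OE1 and 0.66 in Pcf11-OE2, and by 0.30 and 0.35 in the ΔPcf11-labelled libraries and Pcf11-AARR, where the call was lost without some single libraries. ARS308 held 5.69, 5.89 and 4.53 CPM in Pcf11-AARR, against 7.24, 7.19 and 7.06 in WT, and its call there (log2 fold change −0.42, edgeR adjusted p = 0.046) was lost without any 1 of the 6 libraries. In Pcf11-OE1 it held 4.24, 5.5 and 5.24 CPM, against 7.25, 7.14 and 7.03 in WT, and fell by 0.51 on the log2 scale (edgeR adjusted p = 0.0103), a call kept under the 11 alternatives. In Pcf11-OE2 the log2 fold change was −0.45 (edgeR adjusted p = 0.0204), and the call was lost without either of 2 Pcf11-OE2 libraries or either of 2 WT libraries. TEL06L rose by 0.54 in Pcf11-OE2 and ARS1216 was called in no strain, with 81 reads over the WT libraries. ARS430 held 19 reads over the WT libraries and ORI5 22. ARS430 was called higher in Pcf11-AARR, Pcf11-OE1 and Pcf11-OE2 (log2 fold changes 2.06, 1.75 and 1.67, edgeR adjusted p = 0.0186, 0.0231 and 0.0312) but not in the libraries labelled ΔPcf11. ORI5 was called lower in the libraries labelled ΔPcf11 (−6.12, edgeR adjusted p = 0.0328), was not called in Pcf11-AARR and was not tested in Pcf11-OE1 or Pcf11-OE2. At these counts each of these calls was lost without some single libraries. ORI2 held at most 6 reads and ARS601 at most 12 in any strain, and neither was tested.

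**Figure D5:**
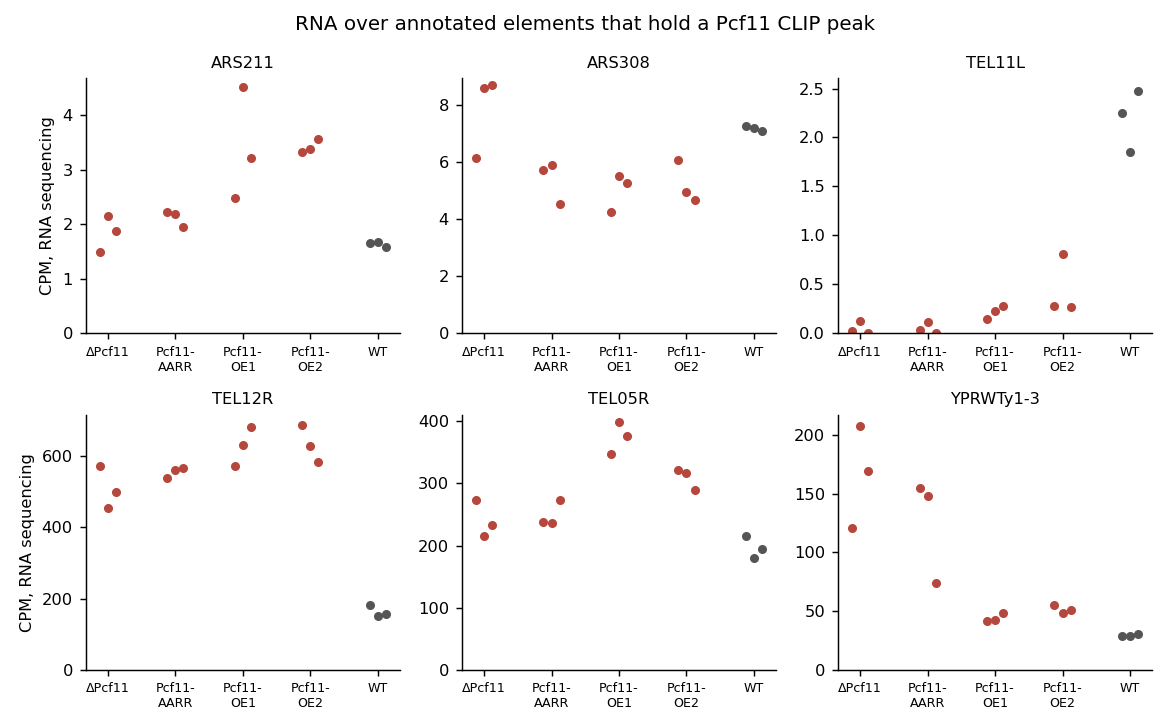
CPM (vertical axes, each with its own scale from 0) of 6 annotated elements that hold a CLIP region, with 1 point a library, with ΔPcf11 and Pcf11-AARR, then both overexpression strains, left of WT, which is drawn as scaled with the first 2. All engineered libraries lie above WT for TEL12R, between 455 and 689 CPM against 152 to 183, and below it for TEL11L, at or under 0.805 CPM against 1.85 to 2.48.

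Reads between genes were also summarised by the authors for 9 of the RNA libraries. In the authors' deposited table they made up 5.49, 6.23 and 6.21% of reads in the ΔPcf11-labelled libraries and 5.78, 5.59 and 5.41% in Pcf11-AARR, against 6.79, 7.1 and 7.57% in WT. No library of either strain overlapped WT. The means were 5.98 ± 0.422% in the ΔPcf11-labelled libraries, 5.59 ± 0.185% in Pcf11-AARR and 7.15 ± 0.393% in WT (SD, n = 3 each), and an exact two-sided permutation test gave p = 0.1 for each, which is the smallest that 20 rearrangements allow.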

How the data were processed

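RNA bound to Flag-tagged Pcf11 (CLIP, 2 IP libraries each with an input) and RNA of 5 strains (3 libraries each) were taken as deposited in *Saccharomyces cerevisiae*. Reads were trimmed with fastp 0.23.0, per the submitters' processing notes; the aligner, the settings of the peak caller, the counting tool and its strand setting were not given in the sources used here. A stranded mRNA kit is named per the labels' protocols. The deposited peak lists give tag counts and a peak height, a coverage signal, for each peak, called in each IP library against its input per the file headers. The 2 deposited tables give raw counts per feature, with WT counts equal in both for all 6863 shared features. Deposited FPKM values of the inputs were used for levels only.

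Peak positions were related to features of the count table (500 bases, midpoint) and to RefSeq R64, whose chromosomes and genes match them. Shares have Wilson 95% intervals, which cover counting error only, since reads without molecular identifiers are not independent molecules. Counts were tested with edgeR 4.0.16 (TMM, filterByExpr, quasi-likelihood, Benjamini-Hochberg at 0.05) in R 4.3.3, with all 3 groups of a table in 1 fit, after a test on simulated data; DESeq2 1.42.0 was an alternative. Groups are the strain labels, and whether libraries come from separate cultures is said only as biological replicates. Members and lists were chosen with earlier results of these data known. Named genes are the neighbours of up to 10 shared regions ranked by the lower height and of the 5 highest regions found in each library only, the 4 highest and 4 lowest called neighbours in each comparison (standard name, mean of at least 10 CPM, no overlap between replicates of the 2 groups), and PCF11. Same-numbered libraries of Pcf11-AARR and WT deviated together (correlations 0.107 to 0.358), by the data only; those of the other strains did not in every pair (−0.115 to 0.112).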

Additional observations from a re-analysis of the deposited data

How the results depend on the processing

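Counts of regions and shares moved with the definitions. Kept at the median height of their library, the peaks numbered 10 in IP 1 and 8 in IP 2, and 3 regions were shared. The share past a 3′ end was 2.43% within 200 bases and 13.6% within 1000, and 3.88% with ends of RefSeq genes, beside 3.43%, 16.4% and 5.22% of gene-free windows of the same widths. The RefSeq alternatives and the windows were chosen after seeing the data. The share before a start was 44.2% by nearest edge, and 7.28% within 200 bases, 54.9% within 1000, 28.6% with standard gene names only and 56.3% within 1000 bases of RefSeq starts, beside 8.61%, 49.5%, 26.7% and 50.5% of windows. Leaving out 1 IP library gave 7.22% to 8.4% past a 3′ end and 32.1% to 40.2% before a start. Regions widened by 50 bases on each side, longer by construction, held TATATA in 35.9%, AATAAA in 32.3%, AAAAAA in 47.5%, TTTTTT in 41.4%, GTAA in 81.8%, GTAG in 61.1% and TCTT in 88.9%, beside 30.1%, 35.7%, 46.1%, 46.1%, 84.5%, 64.9% and 88.4% of windows so widened. Genes beside regions that were called, in the order ΔPcf11, Pcf11-AARR, then Pcf11-OE1 and last Pcf11-OE2, numbered 22, 25, 26 and 26 of 35 tested for ends and 74, 77, 83 and 86 of 121, 121, 119 and 119 for starts within 1000 bases. Beside regions found in both IP libraries they numbered 1, 1, 0 and 0 of 1 end and 8, 5, 7 and 8 of 9 starts. Of the 35 genes tested for ends within 1000 bases, 16, 16, 17 and 18 were called higher and 6, 9, 9 and 8 lower, in the same order. Over all features, in that order, 32%, 32%, 35.2% and 33% were called higher and 33%, 32.7%, 33% and 31.9% lower. Leaving out 1 RNA library gave 9 to 10, 15 to 15, 12 to 13 and 13 to 15 ends and 41 to 46, 40 to 49, 50 to 54 and 46 to 57 starts. With the replicate block the counts were 10, 15, 13 and 14 ends and 45, 41, 53 and 50 starts, so that the pairing changed no count by more than 1.5 times. The remaining alternatives, 11 for each of these 8 counts including those that leave out a library, stayed within 1.5 times. The share of peaks found in both IP libraries went with the tag count, and the part of depth was not tested apart.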
